A study of Mus musculus with 2 samples.

Results

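The regions described here are short stretches of mouse DNA, enriched with a PHLPP1 antibody in both libraries of the study, that lie where the ends of 2 or more protein-coding genes come together. They were chosen as the autosomal regions of the IL-4 list that overlapped a region of the untreated list by at least 1 bp and that also overlapped the windows of 1 kb on either side of an end of 2 or more different protein-coding genes in RefSeq. The rule was met by 1692 regions, called 2-gene regions below, of 12172 shared regions at any protein-coding gene end. The other 10480, at an end of 1 gene only, are called 1-gene regions. The 2-gene regions made up 0.751% of the 225427 autosomal regions in the IL-4 list, and 102737 of those autosomal regions were shared in all. The members were selected on the presence of a called region in both lists and on its position, so their number and their presence are a description.

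PHLPP1 is a protein phosphatase best known for removing a phosphate from AKT. DNA recovered with its antibody was profiled by CUT&Tag, in which a transposase tethered through the antibody cuts and tags nearby chromatin. The cells were WT alveolar macrophages (AMs), the resident phagocytes of the air spaces, taken from mouse bronchoalveolar lavage fluid. The groups were IL-4 (20 ng/ml IL-4 for 4 h) and UT (untreated), with 1 library each, and they rest on the treatment label alone because both samples carry the same protocol text; strain, sex, age and number of animals are not given in the sources used here. Differences between the groups therefore have no replicate check and no p-value, and no control-antibody library was used here.

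Mammalian genes often start close to a neighbour that is read in the opposite direction. Such head-to-head pairs share the stretch between their starts as a bidirectional promoter, which is usually rich in CpG dinucleotides and poor in TATA boxes, and the pairs are known for housekeeping work such as DNA repair, mitochondrial function and chaperoning. Ends can also meet head-to-tail, where the finish of a gene lies just ahead of the start of the next on the same strand, or tail-to-tail, where 2 finishes face each other. In each case a single region can reach both ends.

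Promoter sequences for 7 genes at 2-gene regions are printed first, because the results return to them. Bag1 and Kdm1b lie at the strongest regions, Brca1, Atm and Surf1 belong to textbook divergent pairs, Cd68 is the macrophage gene of the set and H2ac6 represents the histone clusters. Each is 300 bases of RefSeq sequence on GRCm38.p6, the assembly behind mm10, read along the gene's own strand, with the start that the promoter table lists standing 250 bases in. For Kdm1b, Atm and Surf1 that start lies inside the gene's annotated outer start, which the regions and all distances between ends use. Capitals mark every match, on either strand, to 1 of 12 letter patterns that are named after the factors or elements known for them.

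Bag1 promoter, chr4:40948245-40948544 (minus strand): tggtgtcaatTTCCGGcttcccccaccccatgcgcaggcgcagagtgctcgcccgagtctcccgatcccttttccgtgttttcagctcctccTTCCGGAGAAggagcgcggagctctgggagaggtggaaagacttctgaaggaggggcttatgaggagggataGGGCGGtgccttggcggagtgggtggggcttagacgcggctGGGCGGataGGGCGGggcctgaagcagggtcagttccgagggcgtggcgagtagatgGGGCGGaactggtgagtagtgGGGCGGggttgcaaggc
Kdm1b promoter, chr13:47043249-47043548 (plus strand): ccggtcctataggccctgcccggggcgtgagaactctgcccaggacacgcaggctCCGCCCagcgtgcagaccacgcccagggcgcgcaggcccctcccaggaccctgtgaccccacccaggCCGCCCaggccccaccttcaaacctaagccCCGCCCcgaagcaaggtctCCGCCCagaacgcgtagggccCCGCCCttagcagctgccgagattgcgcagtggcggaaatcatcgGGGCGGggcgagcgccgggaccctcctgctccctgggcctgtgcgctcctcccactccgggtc
Brca1 promoter, chr11:101551906-101552205 (minus strand): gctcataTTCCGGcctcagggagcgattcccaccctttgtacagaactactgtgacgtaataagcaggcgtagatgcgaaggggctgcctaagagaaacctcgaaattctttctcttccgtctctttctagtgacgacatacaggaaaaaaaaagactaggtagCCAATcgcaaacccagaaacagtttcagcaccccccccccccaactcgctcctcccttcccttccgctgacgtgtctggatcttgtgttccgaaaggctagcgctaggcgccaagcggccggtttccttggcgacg
Atm promoter, chr9:53536622-53536921 (minus strand): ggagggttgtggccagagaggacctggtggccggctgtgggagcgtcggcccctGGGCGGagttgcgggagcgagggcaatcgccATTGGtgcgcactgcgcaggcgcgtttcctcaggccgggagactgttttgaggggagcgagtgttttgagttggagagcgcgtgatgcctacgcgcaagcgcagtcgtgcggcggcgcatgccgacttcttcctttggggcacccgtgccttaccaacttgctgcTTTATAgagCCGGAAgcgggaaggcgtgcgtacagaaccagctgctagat
Surf1 promoter, chr2:26916481-26916780 (minus strand): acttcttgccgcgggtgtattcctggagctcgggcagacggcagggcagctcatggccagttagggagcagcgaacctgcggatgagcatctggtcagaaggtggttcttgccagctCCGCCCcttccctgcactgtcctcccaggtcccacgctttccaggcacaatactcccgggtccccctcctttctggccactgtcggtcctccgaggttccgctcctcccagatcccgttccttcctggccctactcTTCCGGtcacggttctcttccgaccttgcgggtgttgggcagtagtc
Cd68 promoter, chr11:69666121-69666420 (minus strand): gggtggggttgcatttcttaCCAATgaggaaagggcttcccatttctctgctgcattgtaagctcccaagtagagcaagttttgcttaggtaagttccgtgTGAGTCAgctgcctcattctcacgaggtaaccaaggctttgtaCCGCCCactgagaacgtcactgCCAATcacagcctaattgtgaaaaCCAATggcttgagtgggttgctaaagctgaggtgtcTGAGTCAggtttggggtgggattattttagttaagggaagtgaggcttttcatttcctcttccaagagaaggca
H2ac6 promoter, chr13:23683910-23684209 (minus strand): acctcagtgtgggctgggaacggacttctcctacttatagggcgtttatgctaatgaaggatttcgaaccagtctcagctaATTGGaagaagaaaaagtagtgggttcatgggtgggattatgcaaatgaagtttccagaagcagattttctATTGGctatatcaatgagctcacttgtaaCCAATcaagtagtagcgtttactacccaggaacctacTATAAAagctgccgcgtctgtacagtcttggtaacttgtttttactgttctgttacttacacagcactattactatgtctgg

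The Bag1 window held 5 GC boxes (GGGCGG), 2 ETS cores (CCGGAA) and 1 STAT6 pattern that overlapped an ETS core, and the Kdm1b window held 6 GC boxes and no other pattern. In the Kdm1b window the start of Tpmt, the opposite gene, lay at base 90, and in the Brca1 window the start of Nbr1 lay at base 99. In the Atm window the start of Npat was at base 33, and the window held 1 GC box, 1 ETS core, 1 NFY pattern (CCAAT) and 1 TATA pattern (TATAAA). The Cd68 and H2ac6 windows each held 3 NFY patterns and no ETS core. Cd68 also had 2 AP-1 patterns (TGANTCA), and H2ac6 had 1 TATA pattern. GC content ranged from 72.3% in the Kdm1b window to 41.7% in the H2ac6 window. A match shows only that the letters are there.

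A shared region lay at an end of 9 of 10 markers of the type, with none at Chil3, against 2 of 5 lung epithelial markers and 1 of 4 lymphocyte markers. Over all autosomal protein-coding genes the share was 55.8%. The IL-4 folds at the macrophage markers ran from 2.13 (Marco) to 5.34 (Mertk), and the epithelial marker Scgb1a1 had 3.68. The epithelial and lymphocyte markers at 2-gene regions were Sftpc and Cd79a, whose regions had an IL-4 fold of 2.16 and 2.08. The list of IL-4 regions was longer, with 226476 regions against 165968 in UT cells. Regions beside 2 or more genes were more often shared when looked at from the UT list, where 94.3% overlapped an IL-4 region, than from the IL-4 list, where 70.7% overlapped a UT region. In the IL-4 list, 59.4% of regions at 1 gene overlapped a UT region, as did 102737 of all 225427 autosomal regions.

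Starts dominated the 2-gene regions. Of the 1692, 1650 touched exactly 2 genes, 40 touched 3, and 1 region each touched 7 and 14. The region with 14 genes lay in the protocadherin alpha cluster on chromosome 18, and the region with 7 lay at the common finish of the Ugt1a cluster on chromosome 1. They had a fold of 2.49 in IL-4 cells and 2.08 in UT cells (Pcdha1 and its neighbours), and 1.67 in IL-4 cells and 1.81 in UT cells (Ugt1a10 and its neighbours). The strongest region at 3 genes lay at Hykk, Psma4 and AY074887, with 9.96 in IL-4 cells and 6.03 in UT cells. In all, 3084 different genes took part, which is 14.9% of the 20665 autosomal protein-coding genes, while 55.8% had an end at a shared region of any kind. The strand of both genes was known for 1218 of the regions with exactly 2 genes. Of these, 66.1% were head-to-head (805 regions, 95% exact interval 63.4% to 68.8%), 24.3% were head-to-tail (296 regions) and 5.42% were tail-to-tail (66 regions). Another 19 lay at 2 starts on the same strand, 32 had other arrangements, and for 432 the strand of at least 1 gene was not given. Intervals here and below cover counting error only. The genes did not overlap in 69.2% of the regions with exactly 2 genes, while in 482 regions they did and in 27 a gene lay inside its neighbour.

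The strength of a region is given as the authors' fold at its summit, the pileup there over the expected background. The 2-gene regions had a median IL-4 fold of 4.45 (quartiles 3.20 and 6.13), and their values ran from 1.56 to 13.4. The 1-gene regions had a median of 3.44, and all shared autosomal regions a median of 2.37. In the UT list the medians were 3.22 for 2-gene regions, 2.67 for 1-gene regions and 2.28 for all shared regions. Both lists thus gave the same order of these sets. An IL-4 fold of 5 or more was reached by 685 of the 2-gene regions (40.5%), by 24.8% of the 1-gene regions and by 6.002% of all shared regions.

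Levels differed by the arrangement of the ends. Head-to-head regions had a median fold of 5.04 in the IL-4 list and 3.61 in the UT list. Head-to-tail regions had 4.10 in the IL-4 list and 2.91 in the UT list, and tail-to-tail regions 2.41 in the IL-4 list and 2.28 in the UT list. The last were as low as 1-gene regions at a finish, with an IL-4 median of 2.39 and a UT median of 2.25, whereas 1-gene regions at a start had an IL-4 median of 3.86 and a UT median of 2.88. A fold of 5 or more in the IL-4 list was found in 50.3% of head-to-head regions, in 3 of the 66 tail-to-tail regions (4.55%) and in 30.8% of 1-gene regions at a start. The class with an unknown strand (IL-4 median 4.21) and the 42 regions at 3 or more genes (4.26) fell between head-to-head and tail-to-tail. The 19 regions at 2 starts on the same strand had a median of 5.35 in the IL-4 list and 3.29 in the UT list.

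**Figure D1:**
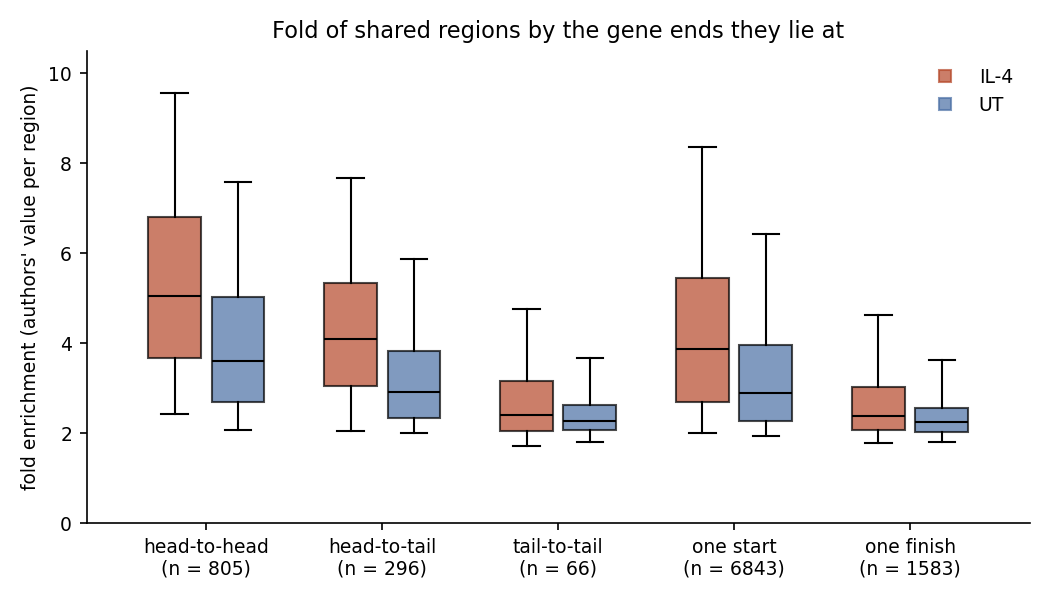
Authors' summit fold (vertical axis) for each arrangement of gene ends, with the IL-4 list left of the UT list in each pair; boxes span the quartiles, the line is the median and whiskers run from the 5th to the 95th percentile. Of the classes drawn, head-to-head regions had the highest medians in both lists (5.04 in IL-4, 3.61 in UT), and tail-to-tail regions had medians of 2.41 in IL-4 and 2.28 in UT.

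Width entered the rule, since a wider region reaches more windows. The 2-gene regions had a median width of 683 bp in the IL-4 list and 527 bp in the UT list, against 563 bp in the IL-4 list and 441 bp in the UT list for 1-gene regions. Within width classes of the IL-4 list, head-to-head regions and 1-gene regions at a start were close when narrow. Below 400 bp their median folds were 2.37 and 2.31, and from 400 to 600 bp they were 3.91 and 3.68. The gap was wider in broad regions, with 5.09 against 4.57 from 600 to 800 bp, 5.81 against 5.07 from 800 to 1000 bp, and 6.32 against 5.20 at 1000 bp or more. Ends of long noncoding RNA (lncRNA) genes were not counted by the rule. The 897 1-gene regions at a start that also had a lncRNA end within the window had a median IL-4 fold of 4.33, and the 5946 without one had 3.80.

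The position of the summit varied with the distance between starts, and the cause was not tested. The median distance at head-to-head regions was 143 bp (quartiles 59 and 339), and 72.8% of these regions covered both starts. Most regions of the other kinds reached only the windows, since 49 head-to-tail regions (16.6%) and 1 of the 66 tail-to-tail regions covered both ends. The median IL-4 fold was 4.80 when the starts were under 100 bp apart, 5.74 at 100 to 200 bp, 5.40 at 200 to 300 bp, 5.14 at 300 to 500 bp, 4.77 at 500 to 1000 bp and 4.83 beyond. The highest median thus belonged to pairs with starts 100 to 200 bp apart. At this distance the summit lay between the starts in 52.4% of 145 regions, against 12.0% of 325 regions with closer starts, which leave less room between them. Regions with starts 500 to 1000 bp apart covered both starts in 19.8% of 101 cases and had the summit between them in 46.5%.

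Summits stood near starts rather than near finishes. Among head-to-head regions, 72.7% of starts had the summit within 250 bp, against 63.4% for the start of 1-gene regions. In head-to-tail regions the summit was closer to the start in 251 of 296 (84.8%, 95% exact interval 80.2% to 88.7%), and in 142 of the 164 regions whose ends were at least 500 bp apart (86.6%). The median distance was 117.5 bp to the start and 653 bp to the finish of the neighbour. Tail-to-tail regions had the summit within 250 bp of 11.4% of their finishes, and 1-gene regions at a finish also had it there in 11.4%. Where a start met a finish, the summit thus lay mostly by the start.

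**Figure D2:**
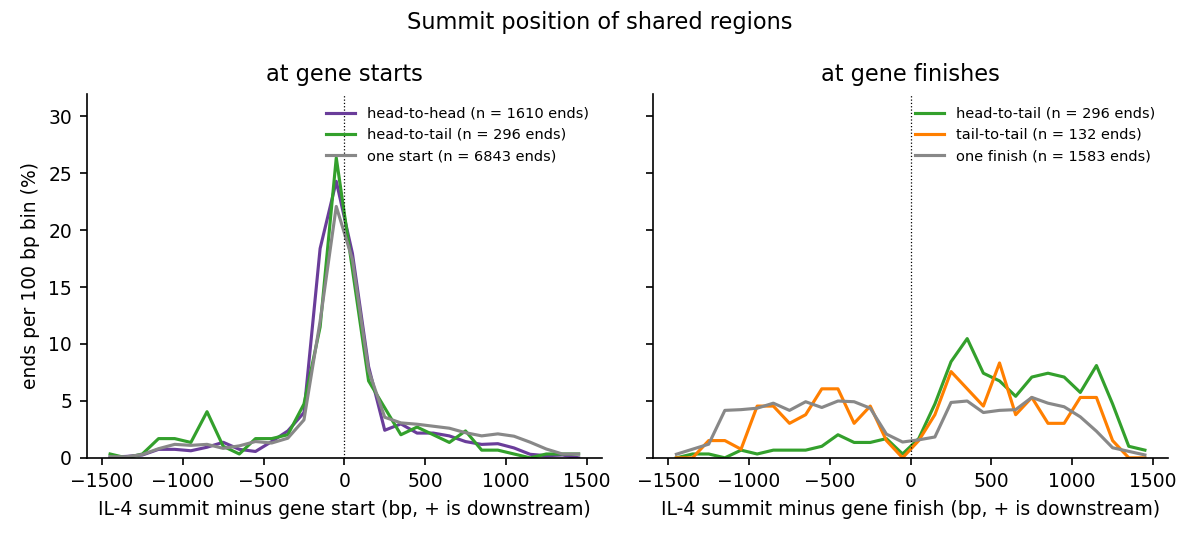
Share of gene ends (vertical axis, percent) by signed distance in bp from the end to the IL-4 summit (horizontal axis), with 1 line for each kind of end. The lines for starts at head-to-head, head-to-tail and 1-gene regions peak close to the start, and 72.7% of head-to-head starts had the summit within 250 bp; the lines for finishes have no such peak and are low at the finish itself.

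The annotation was then read the other way, from neighbouring gene ends to the lists, so that pairs without a region were counted too. Of 878 annotated head-to-head pairs with starts within 1 kb, 93.7% had an IL-4 region touching both windows, 86.9% had such a UT region and 86.3% had a shared one. Of 490 head-to-tail pairs, 63.9% had one in the IL-4 list, 46.7% in the UT list and 45.7% in both. Tail-to-tail pairs were held least often, with 26.9% of 707 in the IL-4 list, 11.6% in the UT list and 9.76% in both. Lone starts, with no other protein-coding end close by, had a region in the IL-4 list in 60.9% of 13134 cases, in the UT list in 49.6% and in both in 45.8%. Lone finishes had a shared region in 11.5% of 12884 cases. The pair shares ask for a region touching both windows, while a lone end needs only a region at its own window. By a shared region at either end, the share was 86.8% of head-to-head pairs and 13.9% of tail-to-tail pairs. Head-to-head pairs thus had a shared region more often than lone starts by both measures. The tail-to-tail share was below that of lone finishes by the first measure and above it by the second.

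**Figure D3:**
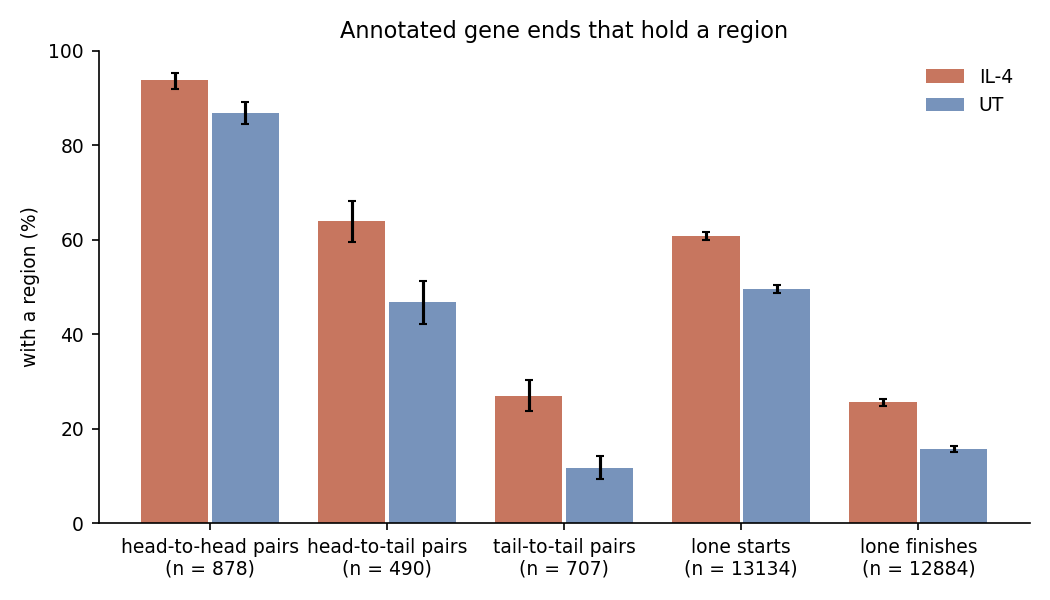
Percent of annotated gene-end pairs within 1 kb with a region touching both windows, and of lone starts and finishes with any region (vertical axis, from 0). In each pair of bars IL-4 is left of UT, and error bars are 95% exact intervals for counting error. Head-to-head pairs reached 93.7% in IL-4 and 86.9% in UT, and tail-to-tail pairs 26.9% in IL-4 and 11.6% in UT.

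This share differed by base composition and was highest from 60% to 70% GC. Among starts whose promoter window had a GC content under 50%, 73.1% of 52 head-to-head pairs had a shared region touching both windows. Of 4338 lone starts in that class, 20.3% had a shared region. From 60% to 70% GC the shares were 91.5% of 399 pairs and 67.1% of 3246 lone starts. At 70% GC or more they were lower again, with 82.3% of 124 pairs and 61.9% of 1622 lone starts. The difference between pairs and lone starts was thus present in each GC class and smaller in the GC-rich ones. For pairs and lone starts that had a shared region, the median fold of the strongest was 5.16 against 4.08 over all classes. It was 5.43 against 4.74 from 60% to 70% GC, and 4.65 against 4.25 at 70% GC or more. A pair offers 2 starts to a region and a lone start offers 1, and the part of this in the difference was not tested. The GC classes were chosen after earlier results were seen.

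Of the 10 strongest regions with exactly 2 genes, 9 were head-to-head and 1 had a strand not given. First by IL-4 fold was the region between Bag1, a co-chaperone of HSP70, and Chmp5, a subunit of the ESCRT machinery for sorting membrane proteins (chr4:40947840-40948835, mm10), with a fold of 13.4 in IL-4 cells and 8.38 in UT cells. Its summit pileup, the number of fragments stacked at the summit, was 235 in IL-4 cells and 124 in UT cells. The starts lay 259 bp apart with the summit between them, and the printed Bag1 window covers most of that stretch. Next was the region of Tpmt, which methylates thiopurine drugs, and Kdm1b, a histone demethylase (chr13:47043039-47043827), with a fold of 13.3 in IL-4 cells and 9.16 in UT cells. This is the region whose Kdm1b window carried GC boxes alone.

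The other regions of the first 10 were as follows. Mrpl47, a protein of the mitochondrial ribosome, and Ndufb5, a subunit of respiratory complex I (chr3:32736379-32737295), had a fold of 12.2 in IL-4 cells and 8.88 in UT cells. Casc1 with Etfrf1, a regulator of the electron transfer flavoprotein, had 11.9 in IL-4 cells and 9.72 in UT cells. Etfdh, the dehydrogenase that takes electrons from that flavoprotein, shared its region with 4930579G24Rik at 11.4 in IL-4 cells and 8.85 in UT cells. All of these named pairs were head-to-head. Anxa5, a binder of phosphatidylserine, with 1810062G17Rik had 11.8 in IL-4 cells and 10.02 in UT cells. Plag1, a zinc finger transcription factor, with Chchd7 had 11.7 in IL-4 cells and 9.39 in UT cells, and the strand of this pair was not given. Npc2, the lysosomal cholesterol carrier, and Isca2, an iron-sulfur cluster assembly protein, had 11.5 in IL-4 cells and 8.31 in UT cells. Prkcsh, a glucosidase subunit of the endoplasmic reticulum, with Ccdc151, and Rhoa, the GTPase of the actin cytoskeleton, with Tcta completed the group. Prkcsh and Ccdc151 had 11.4 in IL-4 cells and 9.46 in UT cells, and Rhoa and Tcta had 11.3 in IL-4 cells and 8.31 in UT cells. These regions were chosen by their IL-4 fold, so the side on which it exceeds the UT fold is not a finding, and the fold is not scaled between the libraries. Of the autosomal IL-4 regions ordered by fold, 2-gene regions were 2 of the first 100, 144 of the first 1000 (14.4%) and 604 of the first 5000 (12.1%), against 0.751% of the whole list. The 1-gene regions were 5 of the first 100, 514 of the first 1000 and 2189 of the first 5000, against 10480 of the 225427 in the whole list. Both sets had to overlap a UT region and the whole list did not. The part of that rule in these shares was not tested.

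Of 20 divergent pairs well known from textbooks, 16 had a 2-gene region, beside 86.3% of all annotated head-to-head pairs within 1 kb and 80.2% of those within 2 kb. The pair of Brca1, the homologous recombination gene, and Nbr1, an autophagy receptor, had a fold of 10.1 in IL-4 cells and 7.44 in UT cells. The kinase gene Atm with Npat, the coactivator of histone genes, had 9.25 in IL-4 cells and 7.78 in UT cells. The mitochondrial chaperonin genes Hspd1 and Hspe1 had 8.69 in IL-4 cells and 6.97 in UT cells. Prkdc with Mcm4, a replication helicase subunit, had 7.59 in IL-4 cells and 5.03 in UT cells, and the purine synthesis genes Paics and Ppat had 7.32 in IL-4 cells and 6.60 in UT cells. Lower values were found for the antigen presentation genes Tap1 and Psmb9 (4.74 in IL-4, 3.49 in UT, with a weaker region at 2.08 in IL-4 and 2.15 in UT) and for Surf1 with Surf2 (3.68 in IL-4, 2.48 in UT). Trp53 with Wrap53 had 2 regions. The region over both starts had 2.91 in IL-4 cells and 2.41 in UT cells, and a stronger one inside Wrap53, 746 bp from the farther start, had 5.16 in IL-4 cells and 2.82 in UT cells. Ercc8, a gene of transcription-coupled repair, with Ndufaf2 was higher in UT cells on the fold scale, with 4.68 in IL-4 cells and 5.10 in UT cells and a pileup of 78 in IL-4 cells and 75 in UT cells. The weakest of the 16 by its strongest region was the collagen pair Col4a3 and Col4a4, with 2.04 in IL-4 cells and also 2.04 in UT cells, and 1.97 in IL-4 cells and 2.29 in UT cells at its other region. Tbp with Psmb1 and Rpl29 with Acy1 had a shared region that touched 1 gene only, while Col4a1 with Col4a2 and Fen1 with Tmem258 had no shared region. The strongest regions of the 16 pairs thus ran from 2.04 to 10.1 in the IL-4 list.

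Head-to-tail and tail-to-tail regions had their own strong members. Among head-to-tail regions the highest fold was at Fyco1, an adaptor for late endosome transport, and Xcr1, a chemokine receptor gene, with 11.1 in IL-4 cells and 7.17 in UT cells. It was followed by Cpne9 with Brpf1, a chromatin reader (9.99 in IL-4, 9.64 in UT), by Eif4a1, a translation initiation helicase, with Senp3 (9.96 in IL-4, 7.31 in UT), and by Clpp, a mitochondrial protease, with Alkbh7 (9.31 in IL-4, 5.57 in UT). Among tail-to-tail regions the highest was at Rilpl1 with Snrnp35, a component of the minor spliceosome, with 8.31 in IL-4 cells and 4.83 in UT cells. Cep95 with Smurf2, a ubiquitin ligase, had 6.23 in IL-4 cells and 3.08 in UT cells. Zfp385c with Nkiras2 had 5.26 in IL-4 cells and 4.63 in UT cells, and Slx4ip with Jag1, a Notch ligand, had 4.85 in IL-4 cells and 3.63 in UT cells. Only the first 3 of the 66 tail-to-tail regions passed a fold of 5 in the IL-4 list.

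Promoter letters differed between the sets of genes. Promoters of genes at head-to-head regions (1506 with a sequence) had a median GC content of 62.3%, against 60.3% at 1-gene regions with a start (6219) and 56.7% over all 16457 promoters in the table. The ratio of observed to expected CpG was 0.837 in head-to-head promoters, 0.735 in promoters of 1-gene starts and 0.597 over all. The ETS core CCGGAA was present in 39.6% of head-to-head promoters (95% exact interval 37.2% to 42.2%), 24.3% of 1-gene starts and 19.6% of all promoters. YY1 (AAGATGGCG) followed the same order, with 5.38%, 2.65% and 1.92%, as did the CRE (TGACGTCA), with 4.25%, 3.04% and 2.40%. The GC box GGGCGG was in 66.7%, 62.8% and 47.3%, and the NRF1 pattern in 2.59%, 2.01% and 1.37%. Because the windows of a close pair overlap, the same letters can count for both genes.

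The E-box (CACGTG), with 11.0%, 9.68% and 7.97%, and the ZNF143 pattern, with 0.996%, 0.627% and 0.468%, had the same order. The TATA and AP-1 patterns ran the opposite way. The TATA pattern was in 4.78% of head-to-head promoters, against 7.96% of 1-gene starts and 13.5% of all promoters, and AP-1 in 3.45%, 5.40% and 7.12%. STAT6, the factor that IL-4 signalling activates, had its pattern in 4.85% of head-to-head promoters, 5.47% of 1-gene starts and 6.40% of all. PU.1 (GAGGAAGT), a pattern of the macrophage lineage factor, was in 2.46%, 3.41% and 3.21%. The NFY pattern was in 41.6%, 39.8% and 39.1%. Promoters of annotated head-to-head pairs counted as lacking a shared region (298) had the ETS core in 32.9% and the GC box in 44.3%. Of 992 annotated head-to-head pairs within 2 kb, 848 had a shared region at either gene and 796 at both. With 1 promoter per gene, the set of 298 can therefore include pairs with a shared region at 1 gene only. The exact intervals of these shares were 27.6% to 38.5% for the ETS core and 38.6% to 50.1% for the GC box. The ETS share of this set thus lay above the 19.6% of all promoters. Its interval overlapped that of the 39.6% at head-to-head regions (37.2% to 42.2%), so these 2 shares were not separated. The intervals do not allow for the overlapping windows of close pairs. The GC box share of this set lay below the 66.7% at head-to-head regions. It was not separated from the 47.3% of all promoters, which its interval included. The fold did not follow the ETS core at head-to-head regions, where the IL-4 median was 5.07 with it in neither promoter, 5.13 with it in 1 and 4.86 with it in both. At 1-gene starts the median was 3.65 without the ETS core and 4.51 with it.

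**Figure D4:**
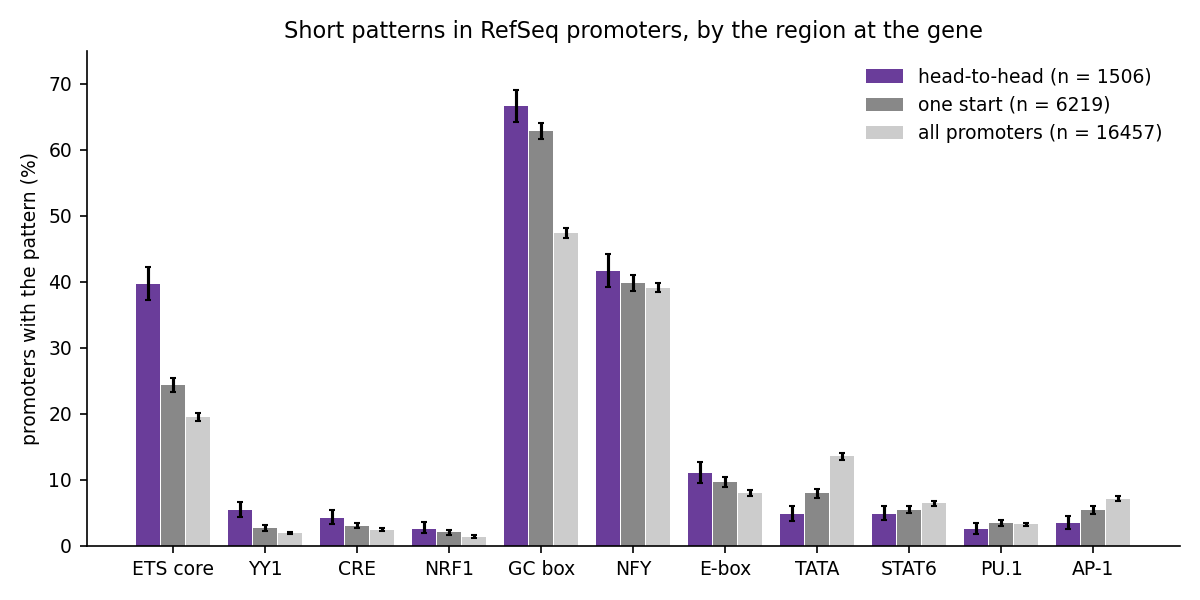
Percent of promoter windows (vertical axis, from 0) holding each letter pattern except ZNF143 (horizontal axis), in bars for genes at head-to-head regions, genes with a start at 1-gene regions and all promoters in the table, with 95% exact intervals. The ETS core stands at 39.6%, 24.3% and 19.6% in these sets, and the TATA pattern at 4.78%, 7.96% and 13.5%.

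The functional lists spread widely around the 14.9% of all autosomal protein-coding genes that lie at a 2-gene region. The share of genes with another protein-coding end within 2 kb, called a close neighbour below, was 33.2% over all genes. Lists with many genes at 2-gene regions tended to have a high share with a close neighbour, but not uniformly. The PI3K, AKT and PHLPP list had 41.2% with a close neighbour and 11.8% at 2-gene regions. Core histone genes were highest, with 41 of 62 (66.1%), and 77.4% of them had a close neighbour. Because these genes stand in clusters, the 41 genes met at only 23 regions, with a median IL-4 fold of 4.15 and a UT median of 2.88. The highest were H3c15 with H2ac19 at 7.18 in IL-4 cells and 5.10 in UT cells, and the H2ac6 and H2bc4 region at 6.28 in IL-4 cells and 3.89 in UT cells. Near-identical copies among the histone genes make the placement of short reads there uncertain.

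Energy and protein synthesis genes came next. Complex I and its assembly factors had 21 of 47 genes at 2-gene regions (44.7%, with 68.1% having a close neighbour), aminoacyl tRNA synthetases 15 of 37 (40.5%, 51.4%) and mitochondrial ribosome proteins 31 of 78 (39.7%, 64.1%). Ndufa4 with Phf14 had a fold of 7.47 in IL-4 cells and 5.03 in UT cells. Fars2, the mitochondrial phenylalanine tRNA synthetase, with Lyrm4 had 8.06 in IL-4 cells and 6.10 in UT cells. Mrpl32 met Psma2, a proteasome subunit, at 8.06 in IL-4 cells and 5.43 in UT cells. DNA repair and replication genes had 30 of 76 (39.5%, with 68.4% having a close neighbour) and the highest median of these lists, 6.10 in IL-4 cells and 4.56 in UT cells. The proteasome list had 15 of 50 (30.0%, with 54.0% having a close neighbour), and it holds Psme3ip1, which its name pattern took in although it is no subunit. Cytosolic ribosome proteins had 19 of 79 (24.1%, 49.4%).

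Few genes of macrophage identity or of the IL-4 response lay at 2-gene regions. Of 33 alveolar macrophage identity genes, 28 had a shared region but only Cd68, a lysosomal glycoprotein of macrophages, lay at a 2-gene region (3.03%, 95% exact interval 0.0767% to 15.8%, which includes the share of all genes), and 9.09% had a close neighbour. The region covers the start of Cd68 and reaches the window of the Eif4a1 finish, which lies 338 bp beyond it (chr11:69665823-69666598), with a fold of 4.23 in IL-4 cells and 4.29 in UT cells. None of 33 IL-4 response genes lay at a 2-gene region, which allows a share of up to 10.6% by the 95% exact interval, although 20 had a shared region and 5 had a close neighbour. Interferon targets were close to the share of all genes, with 5 of 32 (15.6%, and 34.4% having a close neighbour), among them Stat2 with Apof at 6.46 in IL-4 cells and 3.96 in UT cells, and Irf9 with Rnf31 at 4.71 in IL-4 cells and 3.62 in UT cells. Both genes encode parts of the complex that carries type I interferon signals to DNA.

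The pathway of PHLPP1 itself was close to the background of all genes. The list of PHLPP, AKT and PI3K genes had 34 members, of which 27 had a shared region and 4 lay at a 2-gene region (11.8%, with 41.2% having a close neighbour). Rps6kb1, the ribosomal S6 kinase, with Tubd1 had 6.17 in IL-4 cells and 4.09 in UT cells, and Mtor, the kinase of nutrient signalling, with Exosc10 had 2.96 in IL-4 cells and 1.88 in UT cells. Zinc finger genes named Zfp had 40 of 388 (10.3%, 20.4%). Genes known from other cell types had shares under the 14.9% of all genes, though the interval for neuron genes (0.101% to 20.4%) included it. Neuron genes had 1 of 25 (4.00%, with 20.0% having a close neighbour), Slc17a7 with Gfy at 2.09 in IL-4 cells and 1.74 in UT cells, and olfactory receptors had 2 of 1104 (0.181%, 1.72%). These were Olfr460 beside Clec5a, a myeloid lectin gene, at 3.97 in IL-4 cells and 3.49 in UT cells, and Olfr94 beside Ubd at 2.61 in IL-4 cells and 1.94 in UT cells.

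**Figure D5:**
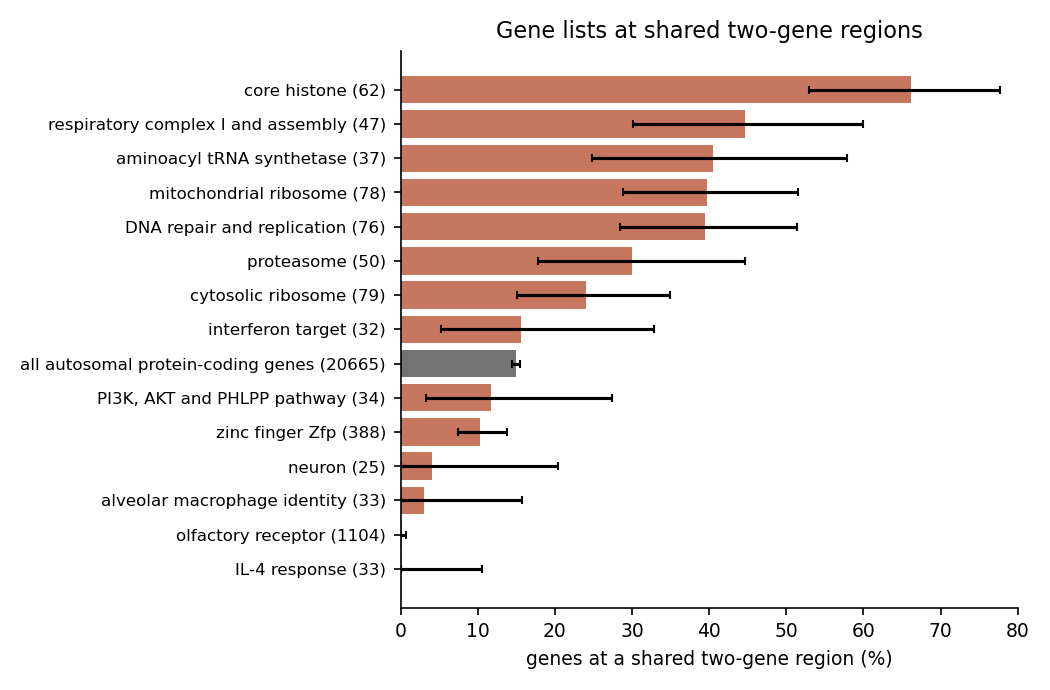
Bars give the percent of the genes of each functional list at a 2-gene region (horizontal axis, from 0; list size in brackets), with 95% exact intervals for counting error and the value of all autosomal protein-coding genes, 14.9%. Core histone genes reach 66.1%, and IL-4 response genes (0 of 33) and olfactory receptors (2 of 1104) are lowest.

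Between the groups, the summit pileup was compared as IL-4 over UT without scaling for depth. The constant background recovered from each list was 15.87 in IL-4 cells and 13.91 in UT cells, a ratio of 1.14. At 2-gene regions the median pileup was 83 in IL-4 cells and 48 in UT cells, and the median ratio was 1.66. It was 1.53 at 1-gene regions and 1.26 at all shared autosomal regions. A ratio of 2 or more was found at 278 of the 2-gene regions (16.4%), at 10.6% of the 1-gene regions and at 5.08% of all shared regions. A ratio below 1 was found at 25 of the 2-gene regions (1.48%), at 4.70% of the 1-gene regions and at 13.5% of all shared regions. The difference between 2-gene and 1-gene regions moved with the level of the region. At a UT fold under 3 the median ratios were 1.67 and 1.44, and in stronger classes they were 1.70 and 1.63 (fold 3 to 4), 1.65 and 1.63 (4 to 6), and 1.57 and 1.58 (6 or more). Among regions of equal and high UT fold the ratios of the sets were thus close.

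By arrangement, head-to-tail regions had a ratio of 2 or more in 24.0% of cases (71 regions, 95% exact interval 19.2% to 29.3%), against 12.5% of head-to-head regions (101 regions, 10.3% to 15.03%), 15.2% of tail-to-tail regions and 11.7% of 1-gene regions at a start. Their median ratios were 1.72 at head-to-tail, 1.65 at head-to-head and 1.47 at tail-to-tail regions. Head-to-tail regions had a lower median UT fold than head-to-head regions (2.91 against 3.61). Within UT fold classes their median ratios were closer, with 1.76 and 1.68 (under 3) and 1.76 and 1.69 (3 to 4). They were 1.67 and 1.64 (4 to 6), and 1.63 and 1.56 (6 or more, with 14 head-to-tail regions). Among the 917 regions with exactly 2 genes and a UT fold of 3 or more, the highest ratio was 2.78 at Exd1 with Chp1, a calcineurin-like calcium binding protein, with a pileup of 153 in IL-4 cells and 55 in UT cells. Kctd11 with Acap1 had 2.75, Sbk2 with Sbk3 2.60 and Ttc16 with Tor2a 2.56. Ifi30, the thiol reductase of antigen processing, with Pik3r2, a regulatory subunit of PI3K, had 2.72. The lowest were 0.463 at Nhlrc3 with Proser1, 0.493 at Parp3 with Rrp9, 0.552 at Rnf170 with Hook3, 0.627 at Abhd15 with Trp53i13 and 0.761 at Zfp672 with Sh3bp5l. In these 5 the UT region also overlapped a second, stronger IL-4 region, so the low ratio compares the UT summit with the weaker part of a region that the IL-4 list splits.

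The limit of 1 kb fell among regions of ordinary strength. Just inside it were Ascl5 with Cacna1s, 997 bp from the farther end, with a fold of 1.98 in IL-4 cells and 2.23 in UT cells, Unc80 with Rpe at 996 bp (6.11 in IL-4, 4.69 in UT) and Hpca with Tmem54 at 995 bp (1.65 in IL-4, 1.92 in UT). Just outside, at 1003 bp from the next end, were the regions of Ankrd39 (6.55 in IL-4, 4.55 in UT), Ncoa3 (2.31 in IL-4, 2.15 in UT) and Pank4 (2.53 in IL-4, 2.35 in UT). By chromosome, 2-gene regions made up between 8.90% of the shared gene-end regions on chromosome 18 and 20.2% on chromosome 19. In most cases the UT list had the same arrangement, since 1628 of the 2-gene regions (96.2%) overlapped a UT region that itself touched at least 2 of the genes, and in 80.1% the IL-4 region was the wider, as in 76.4% of 1-gene regions and 63.9% of all shared regions.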

How the data were processed

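PHLPP1 CUT&Tag was measured in 2 libraries, 1 of IL-4 and 1 of UT alveolar macrophages, grouped by the treatment label alone, since both samples carry the same treatment protocol text. The deposited lists give each region's position and summit, the authors' score, their fold ratio of summit pileup over background, and −log10 p and −log10 q. The submitters' processing notes name the build mm10 and the tools DiffBind, MACS2 2.2.7.1 and Bowtie 0.12.8, without roles. No read depth is given in the deposited files, so precision rests on the pileups.

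Regions were joined to RefSeq gene ends with Python 3.11.15, pandas 2.3.3 and scipy 1.17.1. Summit pileup and background were recovered from the authors' fold and −log10 p, taking fold as pileup plus 1 over background plus 1. All recovered pileups were whole within 0.05. Where several UT regions overlapped, the one with the highest summit pileup was used. A gene end was called a start or a finish from its strand, which the RefSeq promoter table gave for 16457 genes (79.6%). Where a window held both ends of a gene, the end nearest the summit was used. Exons, introns and UTRs were not analysed here. The joining steps were tested on simulated regions. Intervals are 95% exact (Clopper-Pearson), and because the design has 1 library per group no test was run. The regions, the gene lists and the rules for naming genes were chosen with earlier results of these data known. Named were the 10 highest folds, regions with the most genes, the 20 textbook pairs, the 4 highest head-to-tail and tail-to-tail folds, the 5 highest and lowest ratios, up to 4 genes of each functional list, and 3 regions on either side of the 1 kb limit. Some of the genes these rules name are not reported here. Alternatives were windows of 500 bp and 2 kb, 50% reciprocal overlap, −log10 q of 5 or more in both lists, gene starts only, and leaving out overlapping genes.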

Additional observations from a re-analysis of the deposited data

How the results depend on the processing

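The 2-gene regions made up 13.9% of shared gene-end regions, against 13.1% with windows of 500 bp, 16.2% with 2 kb, 17.7% at a −log10 q of 5 or more in both lists and 10.4% with gene starts only. Their number was 1692, between 1135 and 2537 under the other window, overlap and q settings, and 864 with starts only. The head-to-head share of 66.1% was 75% at 500 bp, 52.1% at 2 kb, 72.2% at the stricter q and 61.1% without overlapping genes. Median IL-4 fold and width, 2-gene over 1-gene, had ratios of 1.29 and 1.21, which were 1.11 and 1.12 at the stricter q; the cause was not tested. The median pileup ratio of 1.66 was 1.64 at 2 kb, and the ETS share stayed between 38.4% and 40.8%. No paired analysis was possible because each group has 1 library. Without replicates, a control antibody or read depth, differences between libraries cannot be told apart from differences between IL-4 and UT cells, and pileups limit the precision of weak regions most.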
